A study of Mus musculus with 13 samples.

Results

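Integrin and laminin genes were examined in hippocampal RNA of mice after status epilepticus (SE). Members were taken by gene symbol, as all integrin alpha, integrin beta and laminin alpha, beta and gamma genes of the deposited table except Itgam and Itgax, which gave 35 of 45777 genes. They comprised 16 integrin alpha, 8 integrin beta and 11 laminin genes. The 13 libraries fell into 4 groups, with 3 SE-cKO, 3 SE-WT, 4 sham-cKO and 3 sham-WT mice. SE mice had received pilocarpine at 260 mg/kg (males) or 280 mg/kg (females), a muscarinic agonist that provokes prolonged seizures, and sham mice had received saline, with hippocampi taken on day 3 from mice injected at 6 weeks of age. LIN28A-cKO mice were Nestin-Cre::Lin28a loxP/loxP and LIN28A WT mice were Nestin-Cre::Lin28a+/+, so that both genotypes carried the Cre transgene. Nestin-Cre acts in neural progenitors and all cells descending from them, in other brain regions as well as in hippocampus, whereas microglia and blood vessel cells arise from other lineages. Mice of both sexes were used, and the labels do not give the sex of each library.

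Integrins are receptors that pair 1 alpha with 1 beta subunit at the cell surface and bind extracellular matrix or proteins on other cells. The partners decide the ligand: alpha3, alpha6 and alpha7 with beta1 bind laminin, alpha1, alpha2, alpha10 and alpha11 with beta1 bind collagen, and alpha5 and alpha8 with beta1, alphaIIb with beta3 and alphav with several beta subunits bind the RGD sequence of fibronectin, vitronectin and related proteins. Laminins are trimers of 1 alpha, 1 beta and 1 gamma chain and form the sheet of the basement membrane, which in brain lies around blood vessels and below the meninges.

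Total counts per library ran from 59659977 to 84354243, and levels are given as CPM, counts scaled to the size of the library with TMM factors, unless stated otherwise. All 35 genes passed the low-count filter in every comparison. Lin28a itself had 0 counts in 12 libraries and 3 counts in SE-WT 3, so its level could not check the genotype labels, and 3 counts correspond to 0.037 CPM there. Markers of hippocampal principal neurons were present in every library, summing to 269.6 to 787 CPM. Some libraries stood apart in genes of neighbouring tissue. Genes marking striatum summed to 2323 CPM in SE-WT 2 and to at most 250.2 CPM elsewhere. Genes marking thalamus summed to 1303 CPM in sham-cKO 2 and 765 CPM in SE-WT 3, and to at most 152 CPM elsewhere. Choroid plexus genes ranged from 19.4 CPM in SE-WT 1 to 4509.8 CPM in sham-WT 3. Mitochondrial rRNA made up 4.83% of counts in SE-WT 3 and 3.92% in SE-cKO 3, and 0.486 to 1.66% in the other libraries. SE-WT 3 and SE-cKO 3 were also the only libraries with titles of another style, so no sham library had such a title. The part of these features in the values of single genes was not tested.

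Of all genes tested, 13.8% rose after SE in cKO mice and 4.57% in WT mice, and the share that rose in both was not counted. Of the 35 genes, 7 rose after SE in both genotypes (Itga5, Itga6, Itgav, Itgb1, Itgb2, Itgb3 and Itgb5), all of them integrins. The 4 of these that have an entry in the RefSeq promoter table (build GRCm38.p6) are shown, since genes that move together may be read side by side at their starts. Each sequence runs from 250 bases before to 50 bases after the transcription start of its promoter entry, 5′ to 3′ on the strand of the gene, and capitals mark a match to one of the 3 motifs searched. The Itgav window lies downstream of the RefSeq start of the whole gene (chr2:83722303), so it surrounds a start inside the gene.
Itga5 (chr15:103366742-103367041, minus strand): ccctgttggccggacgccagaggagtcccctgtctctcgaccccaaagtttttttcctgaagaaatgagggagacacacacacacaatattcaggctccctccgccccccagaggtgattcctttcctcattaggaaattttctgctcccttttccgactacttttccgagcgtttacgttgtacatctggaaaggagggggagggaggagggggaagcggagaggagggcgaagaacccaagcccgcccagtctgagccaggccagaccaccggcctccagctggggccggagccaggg
Itgb5 (chr16:33829415-33829714, plus strand): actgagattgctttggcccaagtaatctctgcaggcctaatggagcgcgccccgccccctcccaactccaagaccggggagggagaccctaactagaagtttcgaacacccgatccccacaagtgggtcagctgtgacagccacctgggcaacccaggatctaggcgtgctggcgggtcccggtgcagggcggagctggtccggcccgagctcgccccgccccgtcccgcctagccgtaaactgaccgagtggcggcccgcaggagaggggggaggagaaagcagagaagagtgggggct
Itgav (chr2:83724147-83724446, plus strand): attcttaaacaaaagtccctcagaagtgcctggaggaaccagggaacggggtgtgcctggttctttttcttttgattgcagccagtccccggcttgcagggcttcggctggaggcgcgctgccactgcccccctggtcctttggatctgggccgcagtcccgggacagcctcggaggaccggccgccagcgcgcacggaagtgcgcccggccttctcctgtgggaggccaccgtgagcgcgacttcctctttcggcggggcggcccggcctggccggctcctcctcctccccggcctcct
Itgb1 (chr8:128685404-128685703, plus strand): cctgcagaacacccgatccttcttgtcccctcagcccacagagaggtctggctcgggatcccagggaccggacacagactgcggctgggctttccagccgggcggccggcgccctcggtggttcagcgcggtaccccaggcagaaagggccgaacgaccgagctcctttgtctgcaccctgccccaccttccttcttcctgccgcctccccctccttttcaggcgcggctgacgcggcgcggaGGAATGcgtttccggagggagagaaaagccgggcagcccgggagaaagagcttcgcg
The motifs were TGANTCA (AP-1), a form of the NF-kB motif and CATTCC (TEAD), each searched on both strands. Only the Itgb1 promoter held a match, to CATTCC at its first base 7 bases before the start, and the other 3 held none of the 3 motifs. Among 32851 promoters of the same length, 14.7% held CATTCC, 7.81% held TGANTCA and 1.63% held the NF-kB form. In the table, 21 of the 35 genes had 24 promoters in all, of which 3 held CATTCC, 2 held TGANTCA and 0 held the NF-kB form. The matches describe letters in these windows and no binding was measured.

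The levels of the 35 genes were ordered by the deposited TPM values, which correct for gene length as well as library size. Averaged over all 13 libraries, Itgb1 was first with 39.1 TPM, followed by Itgb5 with 37.4 TPM, Itgb8 with 30.3 TPM and Itgav with 26.7 TPM. The most abundant laminins were Lamb1 (10.3 TPM), Lamb2 (9.83 TPM), Lamc1 (8.96 TPM) and Lama2 (5.34 TPM). Itgb6 was last with 0.0877 TPM. The summed TPM of the 8 integrin beta genes was 207 ± 6.74 in SE-cKO mice and 72.6 ± 3.59 in sham-cKO mice, and 146 ± 16.5 in SE-WT mice and 69.6 ± 6.67 in sham-WT mice (SD, n = 3, 4, 3 and 3). The summed TPM of the 11 laminin genes was 53.2 ± 4.47 in SE-cKO mice and 46.1 ± 6.75 in sham-cKO mice, and 45.3 ± 7.71 in SE-WT mice and 42.1 ± 4.58 in sham-WT mice. The integrin beta sums of the SE and sham groups lay apart, whereas the laminin sums of SE and sham mice overlapped in each genotype.

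The composition of the beta subunits also differed between SE and sham libraries. Itgb5 made up 34.8 ± 5.07% of all integrin beta TPM in SE-cKO mice and 24 ± 1.21% in sham-cKO mice, and 33.6 ± 1.33% in SE-WT mice and 24.8 ± 2.93% in sham-WT mice. Itgb8, whose protein activates latent TGF-beta with alphav, made up 20.4 ± 1.85% in SE-cKO mice and 32.9 ± 2.36% in sham-cKO mice, and 24.1 ± 2.28% in SE-WT mice and 32.1 ± 2.7% in sham-WT mice. In each genotype the SE and sham ranges of both shares did not overlap. Itgav made up 41.3 ± 2.88% of integrin alpha TPM in SE-cKO mice and 26 ± 1.14% in sham-cKO mice, and 39.0 ± 5.39% in SE-WT mice and 28.6 ± 2.41% in sham-WT mice.

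**Figure D1:**
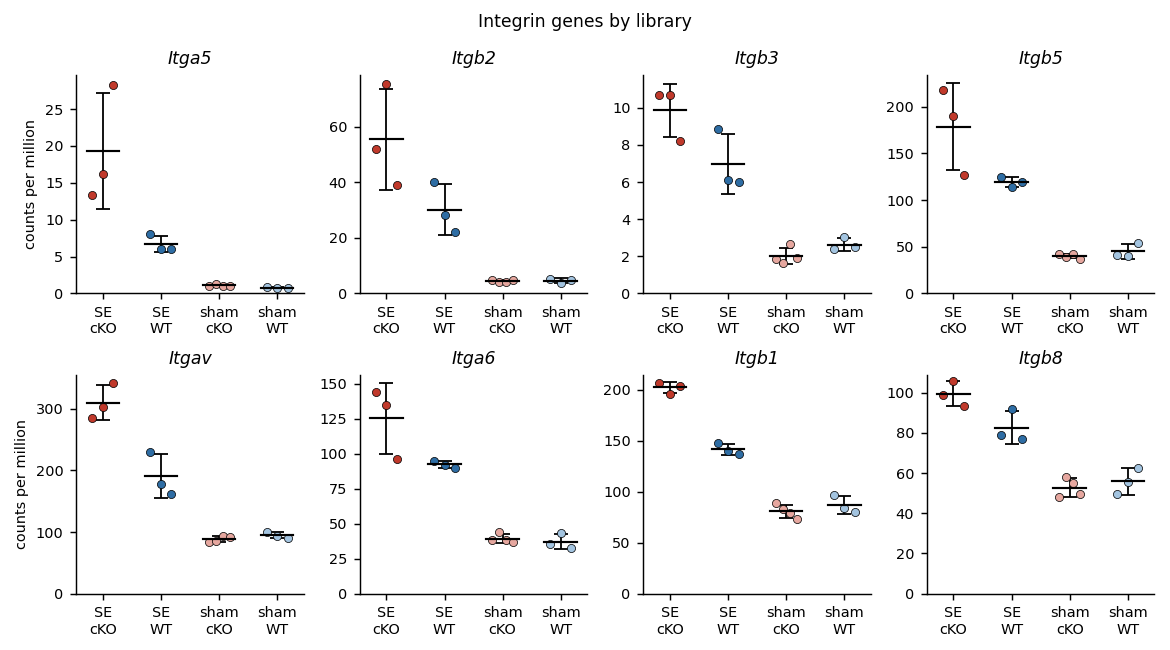
CPM of 8 integrin genes (y axes, from 0) in each library, grouped on the x axis as SE-cKO, SE-WT, sham-cKO and sham-WT. Points are libraries, the horizontal line is the mean and the bar is 1 SD, and every SE library lies above every sham library for all 8 genes.

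SE moved integrin and laminin genes in cKO mice. In SE-cKO against sham-cKO, 15 of the 35 genes rose and 2 fell (edgeR, adjusted p under 0.05), where 13.8% of the 21307 genes tested rose and 8.92% fell. Of the 24 integrins 12 rose and 2 fell, with a median log2 fold change of 1.23, and of the 11 laminins 3 rose and 0 fell, with a median of 0.31. The median over all genes tested was 0.00. In SE-WT against sham-WT, 7 of the 35 genes rose and 0 fell, where 4.57% of the 20803 genes tested rose and 0.832% fell. The median log2 fold change was 0.53 for integrins, -0.32 for laminins and 0.02 for all genes, and 0 laminins passed the test in WT mice (by DESeq2, Lama2 passed as lower). DESeq2 called 18 of the 35 genes higher and 2 lower in cKO mice, where it called 16.3% and 13.1% of all genes, and 11 higher and 2 lower in WT mice, where it called 9.11% and 3.83%. Every SE-cKO library lay above every sham-cKO library for 21 of the 35 genes and below for 1, where 19.8% and 14.4% of all genes did so. For 14 of the 35 genes every SE-WT library lay above every sham-WT library and for 2 below, where 16.8% and 11.9% of all genes did so. Several counts turned on single libraries: without any one of the 3 sham-WT libraries 4 genes rose in WT mice, and the genes lower in cKO mice numbered 0 without SE-cKO 1, SE-cKO 3, sham-cKO 1 or sham-cKO 3, 1 without SE-cKO 2 or sham-cKO 4, and 3 without sham-cKO 2.

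**Figure D2:**
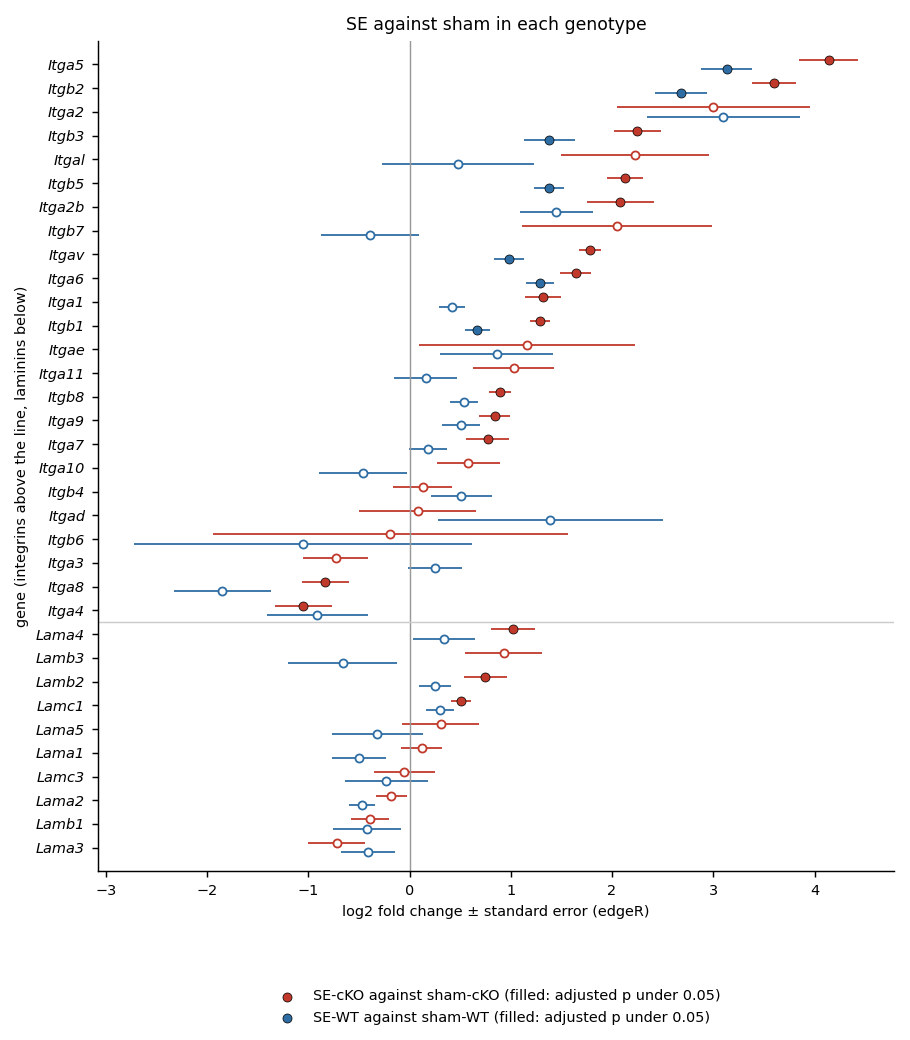
Log2 fold change ± standard error (x axis) of 34 genes (y axis, integrins above the line, laminins below) in SE-cKO against sham-cKO (red) and SE-WT against sham-WT (blue). Filled points have adjusted p under 0.05, and Itga5 lies farthest to the right in both comparisons, at 4.14 and 3.13.

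Among the RGD-binding alpha subunits, Itga5 and Itgav rose in both genotypes. Itga5 encodes the alpha subunit of the classical fibronectin receptor. Itga5 had 13.4, 16.2 and 28.3 CPM in SE-cKO mice, against 0.996, 1.31, 0.996 and 0.999 CPM in sham-cKO mice. Itga5 had 8.01, 6.04 and 6.05 CPM in SE-WT mice, against 0.815, 0.690 and 0.742 CPM in sham-WT mice. The groups did not overlap in either genotype, and every SE-cKO library lay above every SE-WT library. The log2 fold change was 4.14 ± 0.29 (SE, 17.6-fold, adjusted p = 5.37e-05) in cKO mice and 3.13 ± 0.25 (8.76-fold, adjusted p = 0.00167) in WT mice, and Itga5 was called in every alternative tried.

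Itgav encodes the alpha subunit that pairs with beta1, beta3, beta5, beta6 and beta8. Itgav had 285, 303 and 342 CPM in SE-cKO mice, against 83.7, 84.8, 93.3 and 92.7 CPM in sham-cKO mice. In WT mice Itgav had 230.3, 178 and 162 CPM after SE, against 99.9, 93.4 and 90.6 CPM after saline. All SE libraries were above all sham libraries, and the 3 SE-cKO libraries were the highest of the 13. Itgav had a log2 fold change of 1.78 ± 0.11 in cKO mice (adjusted p = 2.51e-05) and 0.98 ± 0.15 in WT mice (adjusted p = 0.015), and the WT call was lost without any one sham-WT library (adjusted p up to 0.0965).

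Itga2b, the alphaIIb subunit known from platelets, was low throughout. It had 3.43, 3.14 and 6.02 CPM in SE-cKO mice, against 1.08, 1.12, 1.02 and 0.655 CPM in sham-cKO mice, and 2.40, 2.06 and 2.27 CPM in SE-WT mice, against 0.543, 0.745 and 1.13 CPM in sham-WT mice. It rose in cKO mice (log2 fold change 2.08 ± 0.33, adjusted p = 0.00274) and did not pass in WT mice (1.45 ± 0.36, adjusted p = 0.067), although its libraries did not overlap in either genotype. The summed markers of platelets and megakaryocytes, of which 3 of 7 passed the filter and 0 passed the test, were 5.92 to 10.5 CPM in SE-cKO, 4.27 to 7.91 CPM in SE-WT, 3.10 to 7.99 CPM in sham-cKO and 4.62 to 5.29 CPM in sham-WT mice. Ppbp was at 0 in all 13 libraries, whereas Pf4 was at 0.314 to 1.58 CPM and Gp9 at 0 to 0.523 CPM. Gp1bb made up most of each sum. The part of platelets in the Itga2b values was not tested.

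Itga8, which pairs with beta1 and binds nephronectin, and Itga4, which pairs with beta1 or beta7 and binds VCAM1 and fibronectin, were the 2 of the 35 genes that passed as lower after SE, in cKO mice. Itga8 had 19.7, 23.7 and 14.6 CPM in SE-cKO mice, against 36.7, 23.0, 37.6 and 37.5 CPM in sham-cKO mice, and 12.8, 3.36 and 14.2 CPM in SE-WT mice, against 30.4, 37.3 and 39.9 CPM in sham-WT mice. The WT groups lay apart, and the cKO groups met at SE-cKO 2 and sham-cKO 2. Itga8 fell in cKO mice (log2 fold change -0.83 ± 0.23, adjusted p = 0.0311) and did not pass in WT mice (-1.85 ± 0.48, adjusted p = 0.0768), where it passed without SE-WT 2 (-1.43, adjusted p = 0.00631) and in other alternatives, DESeq2 among them. A long noncoding gene, E030013I19Rik, overlaps the start of Itga8, and the strand setting of the counting is not given in the sources used here.

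Itga4 had 16.7, 18.6 and 11.1 CPM in SE-cKO mice, against 38.7, 19.1, 38.5 and 29.3 CPM in sham-cKO mice, and 27.3, 5.42 and 14.4 CPM in SE-WT mice, against 26.1, 27.9 and 32.5 CPM in sham-WT mice. Every SE-cKO library was below every sham-cKO library, by little in sham-cKO 2, and SE-WT 1 lay within the sham-WT range. Itga4 fell in cKO mice (log2 fold change -1.05 ± 0.28, adjusted p = 0.0285) and had -0.91 ± 0.50 in WT mice (adjusted p = 0.356). In the sham-cKO group both genes were lowest in sham-cKO 2, the library with 1303 CPM of thalamic genes, and among all libraries both were lowest in SE-WT 2, the library with 2323 CPM of striatal genes. Of 8 markers of hippocampal principal neurons, 4 fell in cKO mice and 2 in WT mice, where 8.92% and 0.832% of all genes fell. Of 8 general neuron markers, 2 fell in cKO mice and 0 in WT mice, with median log2 fold changes of -0.47 and -0.07. In whole hippocampus, fewer cells of a type and less RNA per cell cannot be told apart, nor can more cells and more RNA per cell. The part of these tissue and cell markers in the Itga4 and Itga8 values was not tested. The call in cKO mice was lost in 9 of 16 alternatives for each of the 2 genes.

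Itga9, the second alpha subunit of the alpha4 branch and a tenascin-C receptor with beta1, went the other way. It had 20.3, 16.6 and 15.9 CPM in SE-cKO mice, against 10.6, 8.89, 8.80 and 10.4 CPM in sham-cKO mice (log2 fold change 0.84 ± 0.15, adjusted p = 0.0053). In WT mice Itga9 had 12.1, 13.2 and 10.1 CPM after SE, against 8.42, 6.68 and 9.28 CPM after saline (0.51 ± 0.19, adjusted p = 0.192). The groups did not overlap in either genotype, and the test passed in cKO mice only, which does not show that the genotypes differed.

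Of the laminin-binding alpha subunits Itga6 rose in both genotypes. It encodes a receptor subunit present on endothelial cells, on glia and on neural stem cells. Itga6 had 144, 135 and 96.5 CPM in SE-cKO mice, against 38.5, 44.2, 38.2 and 36.6 CPM in sham-cKO mice. In WT mice Itga6 had 94.8, 92.1 and 90.0 CPM after SE, against 35.3, 43.3 and 32.9 CPM after saline. SE libraries of both genotypes were at least 90.0 CPM and sham libraries at most 44.2 CPM. Itga6 had a log2 fold change of 1.64 ± 0.15 in cKO mice (adjusted p = 1.78e-04) and 1.29 ± 0.14 in WT mice (adjusted p = 0.0034). Of 8 astrocyte markers 5 rose and 1 fell in cKO mice, where 13.8% and 8.92% of all genes did. In WT mice 4 of the 8 rose, where 4.57% of all genes did. The summed level of the astrocyte markers was 8727 to 9377 CPM in SE-cKO, 6769 to 7948 CPM in SE-WT, 4473 to 5925 CPM in sham-cKO and 4878 to 5251 CPM in sham-WT mice. Gfap, the filament protein of reactive astrocytes, was at least 4359 CPM in SE-cKO and 2600.39 CPM in SE-WT mice, and at most 312 CPM in sham-cKO and 358 CPM in sham-WT mice. Gfap alone thus made up a large part of the astrocyte sums of SE libraries and a small part of those of sham libraries. The part of astrocytes in the Itga6 values was not tested.

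Itga7, a laminin receptor best known in muscle, had 37.4, 40.2 and 48.8 CPM in SE-cKO mice, against 18.3, 31.5, 19.9 and 27.4 CPM in sham-cKO mice, and 26.8, 25.7 and 35.6 CPM in SE-WT mice, against 22, 23.9 and 30.6 CPM in sham-WT mice. It rose in cKO mice (log2 fold change 0.77 ± 0.21, adjusted p = 0.0282), and had 0.18 ± 0.19 with overlapping groups in WT mice (adjusted p = 0.652). The cKO call was lost without SE-cKO 2, SE-cKO 3, sham-cKO 1, sham-cKO 3 or sham-cKO 4 (adjusted p from 0.0553 to 0.0787). Itga3 did not pass in either genotype and ranged from 9.58 to 30.0 CPM. Its 2 highest libraries were sham-cKO 2 (30.0 CPM) and SE-WT 3 (23.4 CPM), which were also those with the most thalamic RNA by marker sum, and its other 11 libraries lay at 15.8 CPM or below.

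Of the collagen-binding alpha subunits Itga1 rose in cKO mice. Itga1 had 28.9, 41.0 and 24.4 CPM in SE-cKO mice, against 12.5, 11.5, 12.3 and 13.1 CPM in sham-cKO mice (log2 fold change 1.32 ± 0.18, adjusted p = 0.00124). In WT mice Itga1 had 18.6, 16.1 and 16.7 CPM after SE, against 12.8, 12.3 and 12.8 CPM after saline (0.42 ± 0.13, adjusted p = 0.133, and 0.0415 by DESeq2). The 4 groups formed 3 separate bands, SE-cKO above SE-WT and SE-WT above both sham groups. The gene Pelo lies inside Itga1, so reads of the pair could be split between them by the counting.

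The other 3 collagen receptor subunits were low and did not pass. Itga2 had 1.77, 2.23 and 2.50 CPM in SE-cKO mice, against 0, 0.249, 0.641 and 0.164 CPM in sham-cKO mice, and 1.32, 3.3 and 1.38 CPM in SE-WT mice, against 0.0741, 0.152 and 0.472 CPM in sham-WT mice. All SE libraries were above all sham libraries, and the log2 fold change was 3.00 ± 0.95 in cKO mice (adjusted p = 0.0533) and 3.10 ± 0.76 in WT mice (adjusted p = 0.0657). By DESeq2 the adjusted p was 0.00825 in cKO mice and 9.41e-04 in WT mice. Itga10 had 2.40, 3.91 and 2.65 CPM in SE-cKO mice, against 1.83, 1.82, 2.74 and 1.46 CPM in sham-cKO mice, and 1.97, 0.977 and 1.55 CPM in SE-WT mice, against 1.42, 1.57 and 3.09 CPM in sham-WT mice, with overlapping groups in both. Itga11 was between 1.68 and 3.31 CPM in 12 libraries and 8.45 CPM in SE-cKO 3, a library with 3.92% of mitochondrial rRNA.

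Of the 8 beta subunits 5 rose in cKO mice and 4 in WT mice, where 13.8% and 4.57% of all genes did. Itgb1, the common partner of most laminin- and collagen-binding alpha subunits, had 207, 196 and 204 CPM in SE-cKO mice, against 88.6, 82.9, 79 and 73.5 CPM in sham-cKO mice. In WT mice Itgb1 had 148, 139.9 and 137 CPM after SE, against 97.2, 83.9 and 80.4 CPM after saline. Each group was narrow, and the SE-cKO range lay above the SE-WT range. Itgb1 had a log2 fold change of 1.29 ± 0.10 in cKO mice (adjusted p = 8.53e-05) and 0.67 ± 0.12 in WT mice (adjusted p = 0.0234). The WT call was lost without SE-WT 1 (adjusted p = 0.0715) and without any one sham-WT library (adjusted p up to 0.136).

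Itgb5, a vitronectin receptor subunit with alphav that microglia and other phagocytes carry, had 218, 190.1 and 127 CPM in SE-cKO mice, against 41.8, 39.0, 41.7 and 37.3 CPM in sham-cKO mice. In WT mice Itgb5 had 125, 114 and 119 CPM after SE, against 40.6, 40.5 and 53.8 CPM after saline. SE and sham libraries lay far apart, and SE-cKO 3 lay just above the SE-WT libraries. Itgb5 had a log2 fold change of 2.13 ± 0.18 in cKO mice (adjusted p = 1.05e-04) and 1.38 ± 0.15 in WT mice (adjusted p = 0.0033).

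Itgb3, which pairs with alphav and alphaIIb, had 10.7, 10.7 and 8.22 CPM in SE-cKO mice, against 1.87, 1.65, 2.66 and 1.93 CPM in sham-cKO mice. In WT mice Itgb3 had 8.83, 6.11 and 6.0 CPM after SE, against 2.38, 3.04 and 2.48 CPM after saline. SE libraries held at least 6.0 CPM and sham libraries at most 3.04 CPM. Itgb3 had a log2 fold change of 2.25 ± 0.23 in cKO mice (adjusted p = 2.89e-04) and 1.38 ± 0.25 in WT mice (adjusted p = 0.0246), the WT call being lost without SE-WT 1 (adjusted p = 0.0665) and without any one sham-WT library (adjusted p up to 0.102).

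Itgb8 had 99.0, 106 and 93.6 CPM in SE-cKO mice, against 48.3, 58.2, 55.2 and 49.5 CPM in sham-cKO mice (log2 fold change 0.89 ± 0.11, adjusted p = 6.78e-04). In WT mice Itgb8 had 79.1, 91.9 and 76.8 CPM after SE, against 49.4, 55.7 and 62.7 CPM after saline (0.54 ± 0.14, adjusted p = 0.0768, and 0.0132 by DESeq2). SE libraries lay above sham libraries in both genotypes, as the plot of integrin levels by library shows. Itgb4, the partner of alpha6 at hemidesmosomes, and Itgb6, an epithelial partner of alphav, did not pass in either genotype. Itgb4 ranged from 4.48 to 12.3 CPM, and a short stretch of it overlaps Galk1, where reads could be assigned to either gene. Itgb6 stayed at 1.18 CPM or below, with 0 counts in some libraries of every group.

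Itgb2, a beta subunit of leukocyte integrins that microglia carry in brain, rose most among the beta subunits. Itgb2 had 52.0, 75.2 and 39.1 CPM in SE-cKO mice, against 4.87, 4.03, 4.27 and 4.75 CPM in sham-cKO mice. In WT mice Itgb2 had 40.0, 28.2 and 22.1 CPM after SE, against 5.28, 3.73 and 4.86 CPM after saline. SE and sham libraries did not overlap, and SE-cKO 3 was within the SE-WT range. Itgb2 had a log2 fold change of 3.60 ± 0.22 in cKO mice (12.1-fold, adjusted p = 3.02e-05) and 2.68 ± 0.26 in WT mice (6.4-fold, adjusted p = 0.00284).

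Microglial markers moved with Itgb2. All 8 rose in cKO mice and in WT mice, where 13.8% and 4.57% of all genes did. Their median log2 fold change was 2.19 in cKO mice and 1.79 in WT mice. Their summed level was 1382 to 2206 CPM in SE-cKO, 1209.9 to 1608 CPM in SE-WT, 347 to 373 CPM in sham-cKO and 365 to 388 CPM in sham-WT mice. Of the monocyte and neutrophil markers, 4 of 7 tested rose in cKO mice and 0 of 6 tested in WT mice, where 13.8% and 4.57% of all genes did. These markers summed to 18.4 to 59.1 CPM in SE-cKO, 3.49 to 21.2 CPM in SE-WT, 1.76 to 5.03 CPM in sham-cKO and 1.35 to 4.55 CPM in sham-WT mice. T and B cell markers summed to 5.09 CPM in SE-WT 2, where only Cd4 was above 0, and to at most 1.01 CPM elsewhere, with Cd3e at 0 in all libraries. The part of these cells in the Itgb2 values was not tested.

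The leukocyte alpha subunits and Itgb7 were low, at under 4 CPM in every library. Itgal, the alpha subunit of LFA-1, had 2.18, 3.36 and 2.47 CPM in SE-cKO mice, against 0.328, 0.155, 0.246 and 1.52 CPM in sham-cKO mice, and 1.68, 0.551 and 0.468 CPM in SE-WT mice, against 1.18, 0.456 and 0.236 CPM in sham-WT mice. Itgal had a log2 fold change of 2.23 ± 0.73 in cKO mice (adjusted p = 0.0591), and passed without sham-cKO 4 (3.39, adjusted p = 0.00216). Itgb7, the partner of alpha4 and alphaE on lymphocytes, had 2.35, 2.35 and 0.792 CPM in SE-cKO mice, against 0.668, 0.622, 0.437 and 0 CPM in sham-cKO mice, and 0.709, 0.317 and 0.493 CPM in SE-WT mice, against 0.802, 0.649 and 0.489 CPM in sham-WT mice. It did not pass in either genotype. Itgad and Itgae stayed at or below 0.97 CPM in all 13 libraries and did not pass.

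Of the 11 laminin genes 3 rose in cKO mice, where 13.8% of all genes did. Lama4, the alpha chain of endothelial basement membranes, was the laminin with the highest fold change in cKO mice. It had 26.1, 25.0 and 18.2 CPM in SE-cKO mice, against 14.4, 8.08, 9.99 and 12.4 CPM in sham-cKO mice, and 19.9, 12.7 and 12.2 CPM in SE-WT mice, against 16.6, 9.34 and 8.87 CPM in sham-WT mice. SE-cKO libraries lay above all sham-cKO libraries, whereas the WT groups overlapped. The log2 fold change was 1.02 ± 0.22 in cKO mice (adjusted p = 0.0123) and 0.34 ± 0.31 in WT mice (adjusted p = 0.597). Endothelial markers summed to 152 to 310 CPM in SE-cKO, 146 to 249.7 CPM in SE-WT, 141 to 189 CPM in sham-cKO and 158 to 173 CPM in sham-WT mice. Of these markers 4 of 8 rose in cKO mice and 0 of 8 in WT mice, where 13.8% and 4.57% of all genes did. The part of endothelial cells in the Lama4 values was not tested.

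**Figure D3:**
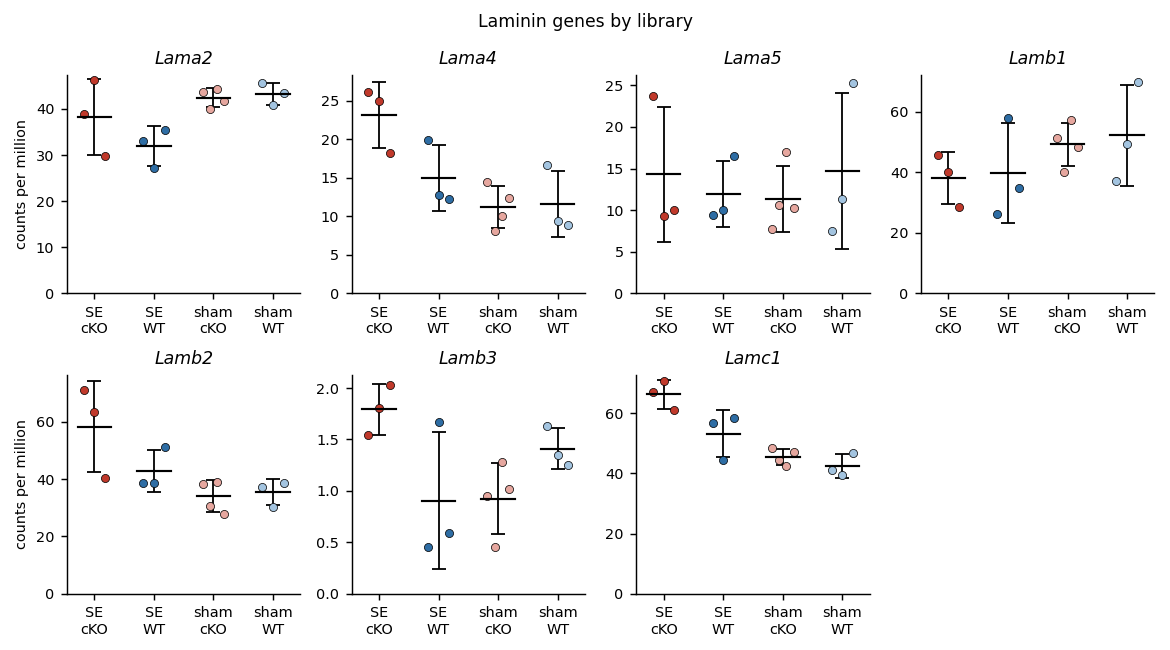
CPM of 7 laminin genes (y axes, from 0) in each library, grouped on the x axis as SE-cKO, SE-WT, sham-cKO and sham-WT, with the mean (line) and 1 SD (bar). SE-cKO and sham-cKO points separate for Lama4, Lamb2, Lamb3 and Lamc1, while SE-WT and sham-WT points overlap for all genes drawn except Lama2 and Lamb2.

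Lamb2, the beta chain of vascular laminins, had 70.9, 63.2 and 40.4 CPM in SE-cKO mice, against 38.4, 30.7, 39.1 and 27.9 CPM in sham-cKO mice (log2 fold change 0.75 ± 0.21, adjusted p = 0.0335). In WT mice Lamb2 had 38.7, 38.7 and 51.3 CPM after SE, against 37.3, 30.2 and 38.6 CPM after saline (0.25 ± 0.16, adjusted p = 0.428). SE-cKO 3 was only just above the highest sham-cKO library, and the call was lost without SE-cKO 1, SE-cKO 2, sham-cKO 2 or sham-cKO 4 (adjusted p from 0.0673 to 0.108). Lamc1, the gamma chain of most laminins, had 67.0, 70.7 and 61.0 CPM in SE-cKO mice, against 48.4, 44.5, 42.4 and 47.0 CPM in sham-cKO mice (0.51 ± 0.10, adjusted p = 0.00823). In WT mice Lamc1 had 56.8, 44.4 and 58.5 CPM after SE, against 41.1, 39.5 and 46.9 CPM after saline (0.30 ± 0.14, adjusted p = 0.29). For Lamc1 the cKO groups lay apart and the WT groups overlapped at SE-WT 2.

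The alpha and beta chains most abundant on average over all 13 libraries, Lama2 and Lamb1, did not rise. In SE libraries alone Lamb2 was above Lamb1 (means of 11.8 and 8.7 TPM). Lama2, the alpha chain made by astrocytes and vessel wall cells, had 38.8, 46.2 and 29.7 CPM in SE-cKO mice, against 43.7, 39.9, 44.4 and 41.7 CPM in sham-cKO mice, and 33.1, 27.2 and 35.5 CPM in SE-WT mice, against 45.7, 40.9 and 43.4 CPM in sham-WT mice. In WT mice every SE library was below every sham library (log2 fold change -0.47 ± 0.13, adjusted p = 0.1, and 0.0313 by DESeq2). In cKO mice the groups overlapped (-0.18 ± 0.15, adjusted p = 0.472). Lamb1 had 45.7, 40.2 and 28.7 CPM in SE-cKO mice, against 51.4, 40.1, 57.3 and 48.5 CPM in sham-cKO mice, and 26.2, 58.1 and 34.9 CPM in SE-WT mice, against 37.3, 49.3 and 70.0 CPM in sham-WT mice. Lamb1 overlapped between SE and sham in both genotypes and did not pass, and its highest SE library was SE-WT 2.

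The remaining laminins described here did not pass in either genotype. Lamb3, a chain of epithelial laminin-332, had 1.54, 1.81 and 2.03 CPM in SE-cKO mice, against 0.947, 0.451, 1.28 and 1.02 CPM in sham-cKO mice, and 0.451, 1.67 and 0.591 CPM in SE-WT mice, against 1.63, 1.35 and 1.25 CPM in sham-WT mice. Lama3 lay between 4.63 and 12.5 CPM and passed as lower in cKO mice only without sham-cKO 2 (-0.94, adjusted p = 0.0122) or when SE-WT 2, SE-WT 3 and sham-cKO 2 were all left out. Lama1 ranged from 6.68 to 15.9 CPM and Lamc3 from 4.18 to 14.8 CPM.

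Lama5 was highest in libraries rich in choroid plexus genes. Its 4 highest libraries were sham-WT 3 (25.3 CPM), SE-cKO 1 (23.7 CPM), sham-cKO 3 (17 CPM) and SE-WT 3 (16.5 CPM), 1 in each group. Their summed choroid plexus genes were 4509.8, 1233, 2736 and 675 CPM. The other 9 libraries had 7.53 to 11.3 CPM of Lama5, and among them sham-WT 2 had the most choroid plexus RNA (1476 CPM) and the most Lama5 (11.3 CPM). The part of choroid plexus in the values was not tested.

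**Figure D4:**
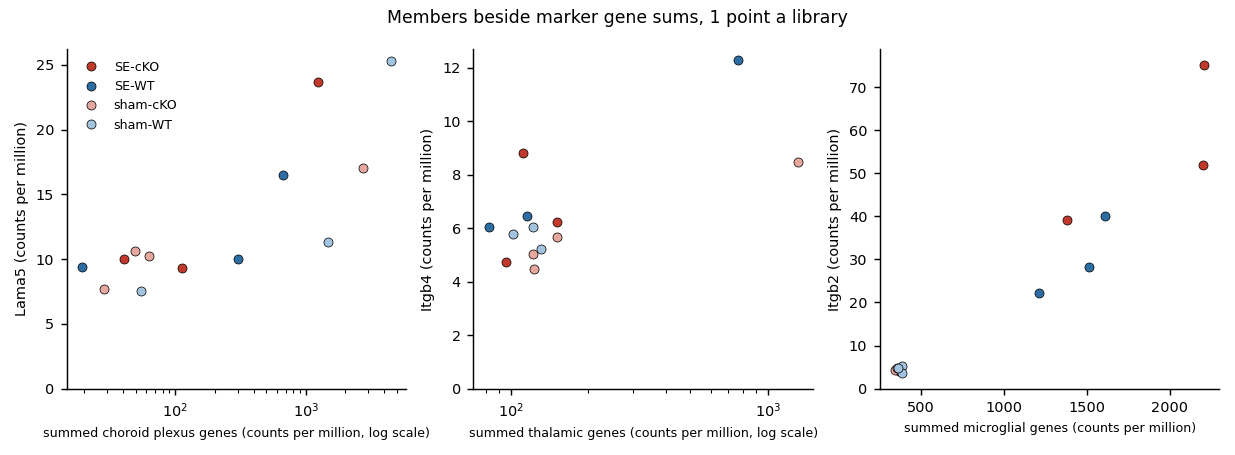
CPM of Lama5, Itgb4 and Itgb2 (y axes) beside the summed CPM of 8 choroid plexus, 8 thalamic and 8 microglial genes (x axes, the first 2 on a log scale), 1 point per library, coloured by group. Lama5 is highest in 4 libraries rich in choroid plexus genes, Itgb4 is 12.3 CPM in SE-WT 3 with 765 CPM of thalamic genes but 8.47 CPM in sham-cKO 2 with 1303 CPM, below SE-cKO 1 (8.80 CPM) with 112 CPM, and Itgb2 separates SE from sham libraries together with the microglial sum.

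Whether deletion of Lin28a changed these genes was first asked in sham mice. In sham-cKO against sham-WT 0 of 35 genes passed the test, as did 0% of the 20785 genes tested. At an unadjusted p under 0.05 there were 0 of the 35 genes, where 3.81% of genes were higher and 1.73% lower, and DESeq2 called 0 of the 35 against 0.0722% of genes higher and 0.00962% lower. The median log2 fold change of the 35 genes was -0.04, and 13 were positive, where 51.5% of all genes were. Only Itga5 had every sham-cKO library above every sham-WT library (0.53 ± 0.27, adjusted p = 0.868), where 3.87% of genes did, and 0 of the 35 had every sham-cKO library below, where 3.81% did.

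After SE the integrins were mostly higher in cKO mice, without any gene passing the edgeR test. In SE-cKO against SE-WT 0 of 35 genes and 0% of the 21126 genes tested had an adjusted p under 0.05 in edgeR. At an unadjusted p under 0.05, 13 of the 35 genes were higher and 0 lower, where 5.42% of genes were higher and 4.27% lower. By DESeq2 2 of the 35, Itga1 (adjusted p = 0.0458) and Itga5 (adjusted p = 0.00337), were higher and 0 lower, where 1.45% of genes were higher and 1.08% lower. The 13 were Itga1, Itga2b, Itga5, Itga7, Itga9, Itga10, Itgal, Itgav, Itgb1, Itgb2, Itgb5, Itgb7 and Lama4, so 12 were integrins and 1 a laminin. In 15 of the 35 genes every SE-cKO library lay above every SE-WT library, where 9.3% of genes did so, and in 1, Itgad, every SE-cKO library lay below, where 5.68% did. The log2 fold change was positive for 27 of the 35 genes with a median of 0.46, while 50.1% of all genes were positive.

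Cell and tissue markers also moved between SE-cKO and SE-WT mice. None of those in the lists given here passed the edgeR test, as was so for all 21126 genes tested. The median log2 fold change was 0.46 for microglial markers (7 of 8 positive), 0.49 for endothelial markers (6 of 8), 1.85 for monocyte and neutrophil markers (6 of 6 tested), 0.71 for fibroblast and meningeal markers (7 of 8) and 0.70 for markers of hippocampal principal neurons (6 of 8). It was 0.70 for choroid plexus (6 of 8), 0.39 for vessel wall (7 of 8) and 0.17 for astrocyte markers (6 of 8). General neuron markers went the other way, at -0.37 (2 of 8 positive), as did oligodendrocyte markers, at -0.25 (2 of 8). It was -2.96 for striatal and -1.52 for thalamic markers, with 0 of 8 positive in each, and 2 of the 3 SE-WT libraries, SE-WT 2 and SE-WT 3, were those rich in these genes. With SE-WT 2, SE-WT 3 and sham-cKO 2 left out, SE-WT 1 was the only SE-WT library. The median of the 35 genes was then 0.51 in SE-cKO against SE-WT and 0.51 in the interaction. The part of the other cells in these differences was not tested.

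The differences were of modest size. The log2 fold change was 1.5 ± 0.32 for Itga5 (2.83-fold, adjusted p = 0.298), 0.84 ± 0.22 for Itga1 (adjusted p = 0.337), 0.67 ± 0.19 for Itgav (adjusted p = 0.347) and 0.48 ± 0.14 for Itgb1 (adjusted p = 0.359). Itgb7 (1.82 ± 0.54) and Itgal (1.55 ± 0.55) had higher values at under 4 CPM in every library. Itga5, Itgb1, Itga1 and Itgav, the 4 with the smallest unadjusted p of the 35, passed when all 4 groups shared 1 fit, with adjusted p of 0.0273, 0.0447, 0.0365 and 0.0352. Itga3, lower in SE-cKO mice (-0.64 ± 0.28, adjusted p = 0.525), had 12.4, 10.3 and 9.58 CPM, against 13.5, 12.3 and 23.4 CPM in SE-WT mice.

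**Figure D5:**
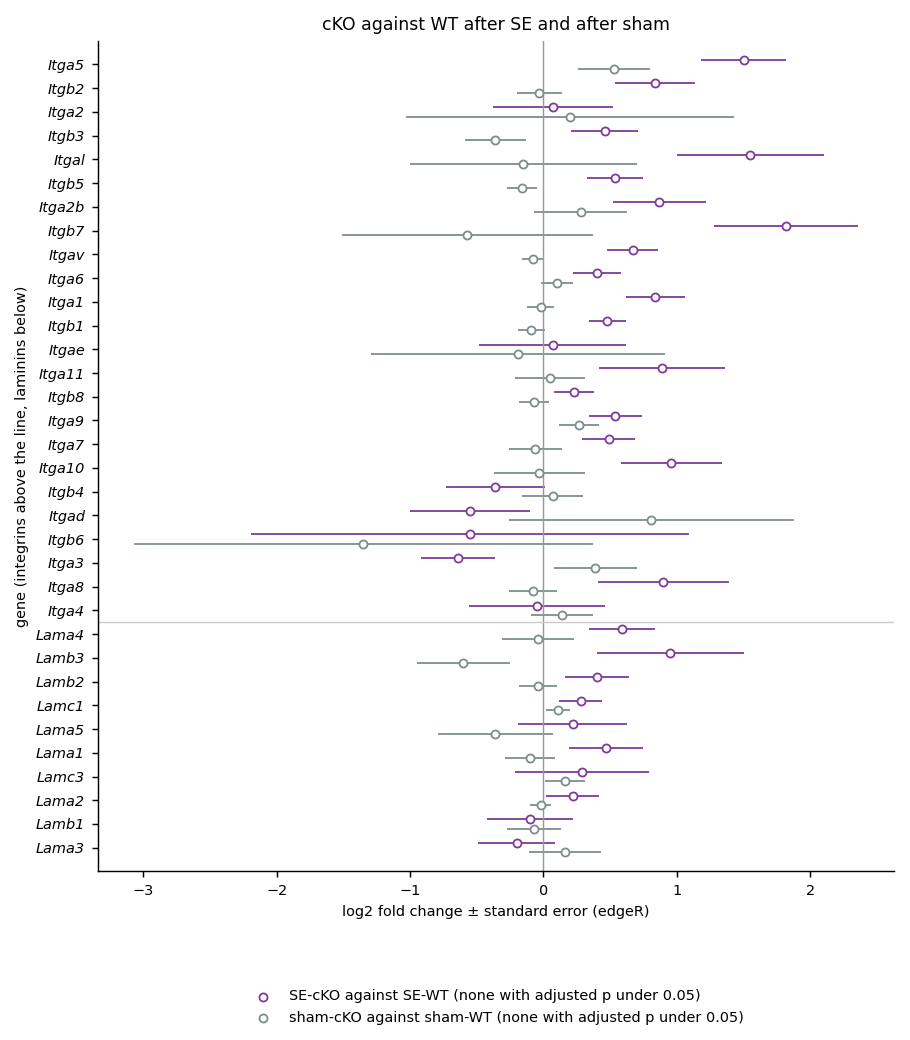
Log2 fold change ± standard error (x axis) of 34 genes (y axis, integrins above the line, laminins below) in SE-cKO against SE-WT (purple) and sham-cKO against sham-WT (grey). No gene passed the edgeR test in either comparison (DESeq2 called Itga5 and Itga1 in SE-cKO against SE-WT), and 27 of the 34 purple points but 13 of the 34 grey points lie above 0.

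The interaction of genotype and SE asked whether SE moved a gene more in cKO than in WT mice, and used the same libraries as the comparisons already given. In it 0 of 35 genes passed, where 0.0841% of the 22596 genes tested were higher and 0.0752% lower. Of the cell and tissue markers, 1 of 8 vessel wall and 1 of 8 astrocyte markers passed as higher. At an unadjusted p under 0.05, 8 of the 35 genes were higher in edgeR and 0 lower, where 6.21% of genes were higher and 6.33% lower. They were Itga1 (0.91 ± 0.23, adjusted p = 0.144), Itga5 (1.01 ± 0.36, adjusted p = 0.267), Itgav (0.80 ± 0.18, adjusted p = 0.112), Itgb1 (0.62 ± 0.14, adjusted p = 0.116), Itgb2 (0.93 ± 0.34, adjusted p = 0.286), Itgb3 (0.87 ± 0.32, adjusted p = 0.283), Itgb5 (0.75 ± 0.24, adjusted p = 0.216) and Lamb3 (1.60 ± 0.66, adjusted p = 0.34). DESeq2 called 3 of the 35, Itga1 (adjusted p = 0.0159), Itgav (0.00533) and Itgb1 (0.00267), and 0 as lower, where it called 1.58% of genes higher and 1.61% lower. In edgeR Itgav passed without SE-WT 1 (adjusted p = 0.0475), and Itga1 (0.0479) and Itgb5 (0.0473) passed without SE-cKO 3. The median of the 35 was 0.62 and 29 were positive, where 51.9% of genes were.

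Genes of the same adhesion pathway were taken from 5 lists. Their counts stand beside the 13.8% of all genes that rose and 8.92% that fell in cKO mice, and the 4.57% that rose and 0.832% that fell in WT mice. Of 17 integrin ligands tested, 12 rose in cKO mice and 3 in WT mice, and 0 fell, with a median log2 fold change of 1.88 in cKO mice and 0.71 in WT mice. Osteopontin (Spp1), a ligand of alphav and alpha9 integrins, had 755, 860.3 and 441.96 CPM in SE-cKO mice, against 12.7, 4.54, 9.66 and 9.60 CPM in sham-cKO mice (log2 fold change 6.20 ± 0.40, adjusted p = 3.46e-05). In WT mice Spp1 had 341, 80.8 and 84.7 CPM after SE, against 23.4, 4.13 and 5.01 CPM after saline (3.93 ± 0.91, adjusted p = 0.0557). All SE libraries lay above all sham libraries, and SE-WT 1 was well above the other SE-WT libraries.

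Fibronectin (Fn1), the ligand of alpha5beta1, had 367, 659 and 311 CPM in SE-cKO mice, against 77.6, 30.6, 57.0 and 75.4 CPM in sham-cKO mice (log2 fold change 2.86 ± 0.36, adjusted p = 8.65e-04). In WT mice Fn1 had 154, 56.6 and 78.6 CPM after SE, against 76.9, 51.1 and 60.8 CPM after saline (0.59 ± 0.36, adjusted p = 0.407), and those groups overlapped. Tenascin-C (Tnc), a ligand of alpha9beta1 and alphavbeta3, had 150.1, 280.4 and 535 CPM in SE-cKO mice, against 27.2, 54.8, 25.0 and 22.6 CPM in sham-cKO mice (3.28 ± 0.46, adjusted p = 0.00146). In WT mice Tnc had 60.2, 42.9 and 49.6 CPM after SE, against 19.9, 20.6 and 19.6 CPM after saline (1.32 ± 0.15, adjusted p = 0.00408). Tnc was highest in SE-cKO 3, the library that was also highest for Itga5 and Itga11, and whose mitochondrial rRNA share was 3.92%, against 0.486 and 0.775% in the other SE-cKO libraries. The labels do not give the cause of this share, and its part in these values was not tested. Icam1, a ligand of Itgb2 integrins, rose by a log2 fold change of 3.03 ± 0.24 in cKO mice (adjusted p = 8.73e-05) and 1.62 ± 0.29 in WT mice (adjusted p = 0.0244), and Ccn1, a matrix protein bound by alphav and alpha6 integrins, by 4.04 ± 0.34 (adjusted p = 1.14e-04) and 2.14 ± 0.33 (adjusted p = 0.015).

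Of the 8 other basement membrane genes, 5 rose in cKO mice (Col4a1, Col4a2, Sparc, Hspg2 and Nid1) and 1 in WT mice (Sparc), with a median log2 fold change of 1.03 in cKO mice and 0.22 in WT mice. Col4a1, a collagen IV chain that lies beside laminin in the membrane, had 171, 108 and 126 CPM in SE-cKO mice, against 49.8, 47.2, 49.1 and 41.8 CPM in sham-cKO mice (log2 fold change 1.5 ± 0.16, adjusted p = 3.92e-04). In WT mice Col4a1 had 51.7, 36.7 and 82.0 CPM after SE, against 43.9, 41.9 and 55.6 CPM after saline (0.24 ± 0.28, adjusted p = 0.69). Of 9 other laminin receptor genes tested, which centre on dystroglycan, 1 rose (Sgce) and 2 fell (Dmd among them) in cKO mice and 0 passed in WT mice, with medians of 0.11 and 0.14. The 1 of 9 that rose is near the 13.8% of all genes that did. Dag1, dystroglycan itself, had a log2 fold change of 0.10 ± 0.09 in cKO mice and 0.29 ± 0.12 in WT mice and did not pass.

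Of 21 adaptors that link integrins to actin, 11 rose and 1 fell in cKO mice, and 2 rose in WT mice, with a median log2 fold change of 0.70 in cKO mice and 0.35 in WT mice. The 1 of 21 that fell in cKO mice and the 2 of 21 that rose in WT mice stand beside 8.92% and 4.57% of all genes. Talin 1 (Tln1), which binds beta tails and switches integrins on, had 163, 201 and 126 CPM in SE-cKO mice, against 51.1, 51.3, 50.9 and 49.3 CPM in sham-cKO mice (log2 fold change 1.66 ± 0.15, adjusted p = 1.67e-04). In WT mice Tln1 had 104, 78.5 and 99.4 CPM after SE, against 54.3, 45.5 and 57.7 CPM after saline (0.81 ± 0.15, adjusted p = 0.0266). Talin 2 (Tln2), the form of neurons and muscle, fell in cKO mice (-0.73 ± 0.19, adjusted p = 0.0248) and had -0.02 ± 0.11 in WT mice, and its highest library was sham-cKO 2 with 319 CPM. Kindlin-3 (Fermt3), the kindlin of blood cells and microglia, rose in both (3.16 ± 0.30, adjusted p = 1.88e-04, in cKO mice and 2.06 ± 0.20, adjusted p = 0.00284, in WT mice). The kindlin of most other tissues, Fermt2, had 0.29 ± 0.12 in cKO mice and 0.35 ± 0.14 in WT mice and did not pass.

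Of 8 kinases and docking proteins downstream of integrins, Lyn, Syk and Bcar1 rose and Ptk2b fell in cKO mice, and Lyn and Syk rose in WT mice, with medians of -0.03 and -0.14. The 1 of 8 that fell in cKO mice is near the 8.92% of all genes that fell. Lyn, a Src family kinase of myeloid cells, had a log2 fold change of 2.66 ± 0.19 in cKO mice (adjusted p = 5.42e-05) and 2.17 ± 0.21 in WT mice (adjusted p = 0.00273). Ptk2b, a kinase abundant in hippocampal neurons, had 159.9, 187 and 215 CPM in SE-cKO mice, against 403, 324, 419.6 and 465 CPM in sham-cKO mice (-1.13 ± 0.16, adjusted p = 0.00139). In WT mice Ptk2b had 192, 205 and 341 CPM after SE, against 346, 436.99 and 468 CPM after saline (-0.79 ± 0.24, adjusted p = 0.123). Focal adhesion kinase (Ptk2) and Src did not pass in either genotype. None of the genes in the 5 lists passed in SE-cKO against SE-WT or in sham-cKO against sham-WT, where 0 of all genes tested did.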

How the data were processed

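Whole hippocampi of 13 mice, labelled as biological replicates, were sequenced as stranded total RNA. Per the labels and the study's methods, the authors used bcl2fastq 2.20.0, Trimmomatic, HISAT2 2.1.0 (mm10) and StringTie 2.1.3b. The strand setting of the counting is not given in the sources used here. The deposited table holds, per gene and library, read counts, FPKM and TPM; the deposited read counts are raw whole numbers and were tested, the TPM values as the authors computed them were used only to order genes and for shares within a family, and the deposited FPKM values were not used. The labels give no batch or sex.

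The 35 genes, the pathway lists and the marker lists were chosen with earlier results of these data known. Genes were filtered with filterByExpr of edgeR 4.0.16 (minimum count 10, minimum total 15), given TMM factors and put through the quasi-likelihood F test with robust dispersions in R 4.3.3, each comparison on its own 2 groups and the interaction on all 13 libraries. P values were adjusted after Benjamini and Hochberg over all genes tested, with a threshold of 0.05, and "rose" and "fell" refer to it. SE of a fold change was its size divided by the square root of F. CPM values used TMM sizes over all libraries. Library pairs of a group differed 51.3 to 468 times more than sampling noise, so none was a repeat of another. On simulated counts 98 and 97 of 100 genes changed by 1 on the log2 scale were recovered in SE-WT against sham-WT (20883 genes) and SE-cKO against sham-cKO (21251 genes), 97 of 100 in SE-cKO against SE-WT (21292 genes) and 68 of 100 in the interaction (21891 genes). The simulation used the same dispersion rule for every group and changed only well-counted genes. It lacked the wider spread of the SE libraries, so these rates do not tell how many real changes would be found.

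Alternatives were DESeq2 1.42.0, all 4 groups fitted together, the replicate number as a block, no filter on low counts, size factors in place of TMM, limma 3.58.1 voom with quality weights, Xist as a covariate, leaving out 2 libraries with titles of another style (SE-WT 3 and SE-cKO 3) or 3 rich in striatal or thalamic RNA (SE-WT 2, SE-WT 3 and sham-cKO 2), and leaving out each library. Leaving out the 3 rich in striatal or thalamic RNA left SE-WT 1 alone in its group. Every gene of the 35 called in a comparison was named. Values per library were given for 14 called genes with the highest fold change and at least 1 CPM, for the 4 most abundant integrins and 4 most abundant laminins, and for genes with an unadjusted p under 0.05 in a genotype comparison or the interaction. Positions and promoters came from RefSeq (GRCm38.p6), where all 35 gene IDs matched. Some genes that enter the counts are not reported here by name.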

Additional observations from a re-analysis of the deposited data

Results flagged for a closer look

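Outlying values were looked for in the sham-cKO group, the only group with 4 libraries, and such a test flags about 1 in 20 groups by chance. Sham-cKO 2 stood apart for 3 genes: Itga3 was 30.0 CPM there, the highest of its group, Itga5 was 1.31 CPM, also the highest, and Itga8 was 23.0 CPM, the lowest. The same library had the highest sum of thalamic genes (1303 CPM), and the part of that tissue in these values was not tested. Itgal was 1.52 CPM in sham-cKO 4, the highest of its group. In the interaction of genotype and SE, edgeR called 0 of the 35 genes and DESeq2 called 3 (Itga1, Itgav and Itgb1).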

How the results depend on the processing

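Of the 7 genes that rose in WT mice, 4 (Itga5, Itga6, Itgb2 and Itgb5) passed in each of 15 alternatives, and of the 17 called in cKO mice 12 passed in each of 16, the exceptions being Itga4, Itga7, Itga8, Lamb2 and Lamc1. In 0 alternatives did a called gene reverse. In SE-WT against sham-WT, DESeq2 called 11 genes higher and 2 lower, and 1 gene (Itga8) was lower with all 4 groups in 1 fit, with limma voom and with Xist as covariate. In SE-cKO against sham-cKO, 0 genes were lower with all 4 groups in 1 fit, with the replicate block, with Xist as covariate and without the 2 libraries of the other title style. In SE-cKO against SE-WT, genes called higher numbered 2 with DESeq2, 4 with all 4 groups in 1 fit and 2 with Xist as covariate, and in the interaction 3 with DESeq2 and 2 without the 2 libraries of the other title style. The interaction median was 0.51 with limma voom and 0.51 without the 3 libraries rich in striatal or thalamic RNA, which left SE-WT 1 alone in its group. The cause of these shifts was not tested.

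Leaving out 1 library at a time gave 4 to 7 genes higher and 0 to 1 lower in WT mice, 13 to 15 higher and 0 to 3 lower in cKO mice, and 0 to 2 higher in the interaction. The median log2 fold change of the 35 genes ranged over 0.24 to 0.45 in WT mice, 0.78 to 0.91 in cKO mice, 0.29 to 0.49 in SE-cKO against SE-WT, -0.09 to 0.01 in sham-cKO against sham-WT and 0.36 to 0.62 in the interaction.

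The replicate numbers were not treated as pairs in the main fits. Deviations of same-numbered libraries correlated at 0.27, 0.02 and 0.11 in WT mice, 0.09, 0 and -0.15 in cKO mice, -0.04, 0.21 and 0.14 in SE-cKO against SE-WT and 0.21, -0.02 and 0.44 in sham-cKO against sham-WT, so that in no comparison was every pair over 0.1. With so few pairs these values cannot decide whether the numbers mark pairs. With the replicate block 5 genes rose and 0 fell in WT mice, 14 rose and 0 fell in cKO mice, and 0 passed in the genotype comparisons and the interaction. With 3 or 4 libraries a group, genes below about 1 CPM (Itgad, Itgae, Itgb6) had standard errors up to 1.75 in the SE comparisons, so changes of that size were not detectable for them.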
